A study of Mus musculus with 2 samples.

Results

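The miR-183, miR-96 and miR-182 cluster is a group of 3 microRNA genes on mouse chromosome 6 whose hairpin precursors each give a mature microRNA from the 5′ arm and another from the 3′ arm. Its members here were the 6 array probes named for these mature arms, out of 1892 probes for mature mouse microRNAs. The comparison was between the skin and the oral mucosa of mice without wounds. Each tissue had 1 single-colour (Cy5) array, loaded with 2 µg of total RNA from a pool of 3 animals, and the study's methods describe its mice as female Balb/c of 8 to 10 weeks. The methods describe the skin and oral mucosal samples as matched. They place the wounds of the study on the back and on the front of the hard palate, without stating the site of the unwounded tissue on the arrays, and no treatment or genotype beyond the strain is named for it. The study calls the arrayed samples epithelium in some places and skin and oral mucosal samples in another, so the share of tissue from under the epithelium is not known. With 1 pool and 1 array per tissue there was no replicate across animals, so no test between the tissues was made, and an SD given with a signal or difference is, unless stated otherwise, from the repeat spots of a probe.

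The 3 genes of the cluster are known to be transcribed together and processed from a shared primary transcript. They are best known from sensory organs, where they are abundant in photoreceptors, hair cells of the inner ear and sensory neurons, and changes in the miR-96 seed cause hearing loss. The cluster is also made in epithelial cells, and miR-182-5p and miR-96-5p are known to repress the transcription factor Foxo1. A microRNA finds its targets mainly through its seed, the bases near its 5′ end, and usually 1 arm of a hairpin is loaded into the silencing complex while the other is degraded.

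In the RefSeq annotation of GRCm38.p6 the 3 hairpins lie on the minus strand, with Mir183 first in the direction of transcription at chr6:30169668-30169737, then Mir96 at chr6:30169446-30169551 and Mir182 at chr6:30165918-30165992. Mir183 and Mir96 are 116 bases apart, Mir96 and Mir182 are 3453 bases apart, and the whole cluster spans 3820 bases. It lies inside the span of a long noncoding RNA gene, Mirc35hg (chr6:30158640-30174125). The nearest protein-coding genes are Nrf1, for a transcription factor of mitochondrial genes, 12459 bases away, and Ube2h, for a ubiquitin-conjugating enzyme, 41551 bases away. The hairpins are shown 5′ to 3′ with the mature arms in capitals, the 5p arm first, because the array read these arms separately.
Mir183: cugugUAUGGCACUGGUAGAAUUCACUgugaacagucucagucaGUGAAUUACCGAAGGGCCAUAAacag
Mir96: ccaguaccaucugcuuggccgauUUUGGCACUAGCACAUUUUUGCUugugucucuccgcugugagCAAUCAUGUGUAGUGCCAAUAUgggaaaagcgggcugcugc
Mir182: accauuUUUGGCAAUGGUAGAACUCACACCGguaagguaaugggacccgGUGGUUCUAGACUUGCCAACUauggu

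The target sequences of all 6 probes were the same as the RefSeq mature sequences. They are given with the seed, bases 2 to 8, in capitals.
mmu-miR-183-5p: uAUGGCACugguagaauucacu
mmu-miR-96-5p: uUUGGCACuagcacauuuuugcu
mmu-miR-182-5p: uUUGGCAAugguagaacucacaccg
mmu-miR-183-3p: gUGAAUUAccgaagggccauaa
mmu-miR-96-3p: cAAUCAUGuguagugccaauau
mmu-miR-182-3p: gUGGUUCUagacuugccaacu

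The 5p arms of miR-96 and miR-182 shared bases 2 to 7 and differed in the seed by C8A, counted from the 5′ end with the base of miR-96-5p first. The seed of miR-183-5p differed from that of miR-96-5p by A2U and from that of miR-182-5p by A2U and C8A. Over their whole length, however, miR-183-5p and miR-182-5p were the most alike, with 18 of 22 bases identical from the 5′ end (81.8%), against 13 of 22 for miR-183-5p and miR-96-5p and 12 of 23 for miR-96-5p and miR-182-5p. Whether the probe of one also bound the other was not tested. No other probe on the array had the seed of any of the 3 5p arms, and miR-3475-5p, with the seed of miR-96-3p, was detected on neither array.

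The position of the spots mattered for this cluster. The probes of miR-183 and miR-182, both arms, had a first spot in column 2, in rows 103 to 106 of the array, and a second spot in column 17, whereas both spots of each miR-96 probe lay elsewhere. In this stretch of column 2 the skin array was dim. For the 4 other microRNAs detected on both arrays with a spot in rows 91 to 110 of column 2, the skin signal of that spot was lower than that of its repeat spot in 4 of 4, with a median log2 ratio of -0.58 (from -0.98 to -0.40), whereas on the oral mucosa array the median was 0.05. Past row 110 the skin median of 6 microRNAs was -1.97 and the oral mucosa median -0.36. In rows 1 to 90 of column 2, with 19 microRNAs, these medians were 0.16 and -0.05. The column 2 spots of miR-182-5p and miR-183-5p gave -0.82 and -1.05 in skin, and -0.10 each in oral mucosa. The differences of the detected arms are therefore given with both spots and without the spots of columns 1 and 2 on both arrays, the latter chosen after the dim spots were seen. Values of other microRNAs are with both spots unless it is said otherwise.

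**Figure D1:**
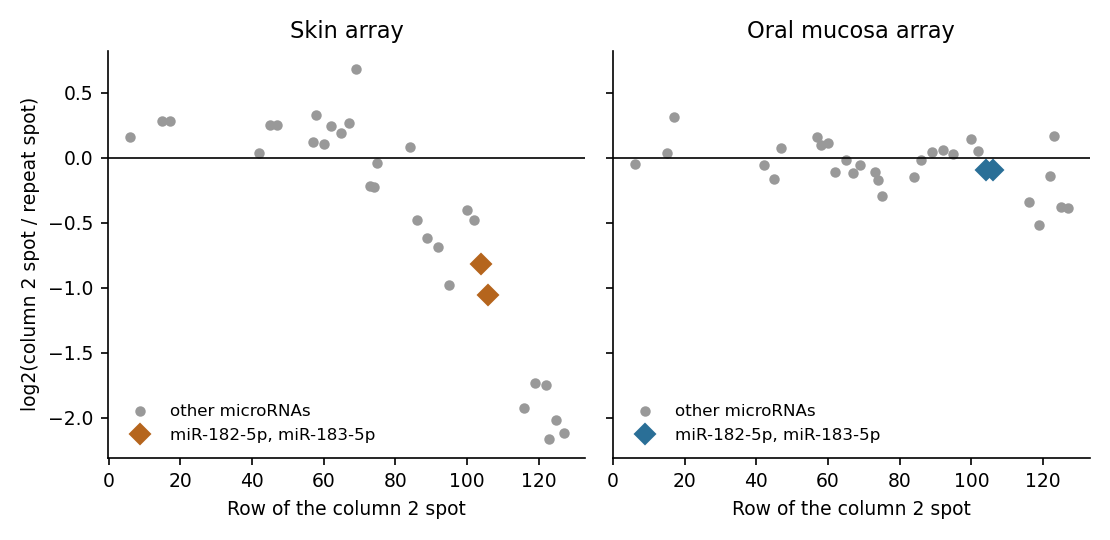
Log2 ratio of the signal of a column 2 spot to its repeat spot (vertical axis) by the row of the column 2 spot (horizontal axis), for the skin array and the oral mucosa array. Grey points are other microRNAs detected on both arrays and diamonds are miR-182-5p and miR-183-5p, which lie at -0.82 and -1.05 among dim spots in skin and at -0.10 each in oral mucosa.

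Of the 6 arms, only miR-183-5p and miR-182-5p were detected on both arrays. MiR-183-3p was detected on the oral mucosa array alone, and miR-96-5p, miR-96-3p and miR-182-3p on neither. Detection required that the repeat spots of a probe average over 3 SD more than the 16 empty spots of its array, that is a signal above 59.9 for skin and 71.8 for oral mucosa, in scanner units. By this rule 562 of the 1892 probes were detected on at least 1 array and 394 on both.

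Both spots of miR-183-5p were well above the limits. They read 266 and 552 on the skin array, a mean of 409 ± 202 (SD, n = 2 repeat spots), and 382 and 409 on the oral mucosa array, a mean of 395 ± 18.9. The dimmer skin spot was the one in column 2, and the skin spots enclosed those of oral mucosa. The variation of brightness within each spot was much smaller than the distance between the skin spots, with an SD of 25.3 in the dimmer and 33.8 in the brighter.

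For miR-182-5p the spots read 391 and 691 on the skin array (541 ± 212), again with the dimmer in column 2, and 904 and 967 on the oral mucosa array (935 ± 44.7). Both oral mucosa spots were brighter than both skin spots. These are scanner units without normalization, and the fit described next gave the oral mucosa array a scale 1.37 times that of the skin array.

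The arrays were made comparable by Variance Stabilizing Normalization (VSN), the method that the study names, in which every array has its own fitted offset and scale. The VSN log2 difference, oral mucosa minus skin, was -0.55 for miR-183-5p with a repeat-spot SD of 0.83, or 1.46-fold higher in skin, and 0.36 for miR-182-5p with an SD of 0.63, or 1.29-fold higher in oral mucosa. Both differences were smaller than their SDs. Without the spots of columns 1 and 2 the difference was -0.95 for miR-183-5p, from 552 in skin and 409 in oral mucosa, or 1.93-fold higher in skin. That of miR-182-5p was then 0.05, from 691 and 967. Each value rested on 1 spot per array, so that it has no SD. With VSN, leaving out these spots thus moved miR-183-5p toward skin, close to the size of 1 used as the rule below, and removed most of the difference of miR-182-5p. Without these spots the differences of miR-183-5p and miR-182-5p were -0.65 and 0.30 after quantile normalization and -0.74 and 0.18 after median scaling. After 75th-percentile scaling they were -0.88 and 0.03.

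The signals of the other arms lay near the limits. MiR-183-3p, the arm opposite miR-183-5p, read 48.7 and 64.8 in skin (56.7 ± 11.4) and 76.9 and 89.1 in oral mucosa (83.0 ± 8.66). Its oral mucosa mean was 1.16 times the detection limit and its skin mean 0.95 times the limit. Set against the lowest detected skin signal, which stands above its own mean, its difference was 0.27 with an SD of 0.34 from the oral mucosa spots. Without the column 2 spots it was detected on both arrays, at 64.8 and 89.1, and the difference was 0.23.

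MiR-96-5p, the member with a known part in hearing, read 52.9 and 39.3 in skin (46.1 ± 9.62) and 78.5 and 57.3 in oral mucosa (67.9 ± 15.0). One of its oral mucosa spots was above the limit of that array, but their mean was not. It was thus not well above background on either array, and no difference is given for it. The empty spots read 36.4 ± 7.84 (SD, n = 16) for skin and 51.9 ± 6.65 for oral mucosa, which sets the scale for such values.

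MiR-96-3p read 43.3 and 31.7 in skin and 56.8 and 43.3 in oral mucosa. MiR-182-3p read 36.8 and 36.2 in skin and 48.8 and 49.4 in oral mucosa. All these spots lay below the detection limits. The 3p arms of miR-96 and miR-182 were therefore not distinguished from empty spots at this signal.

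**Figure D2:**
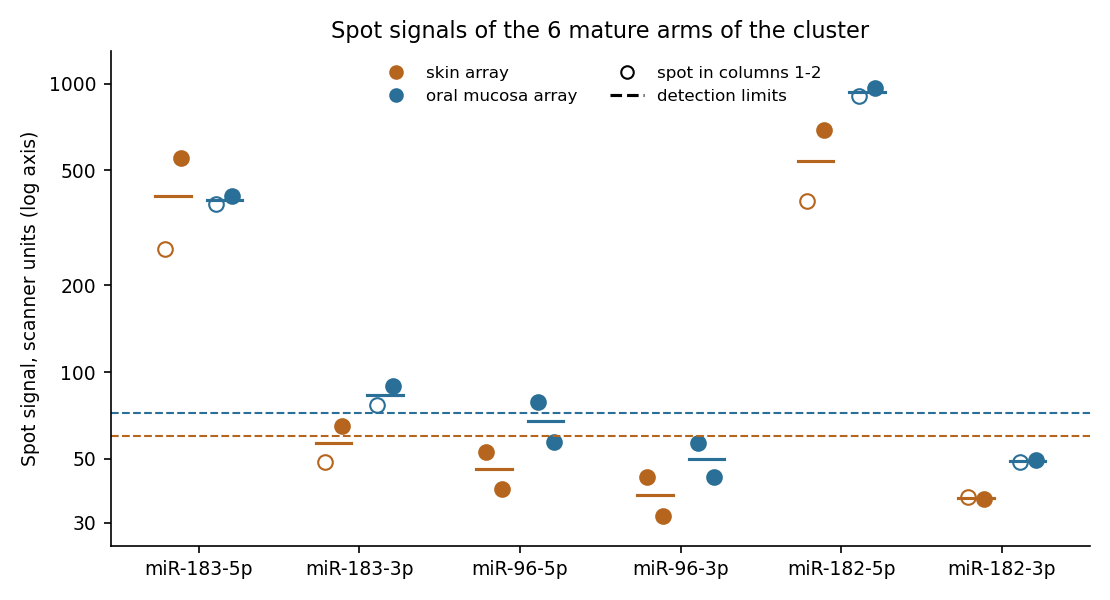
Signal of each repeat spot in scanner units (log axis) for the 6 arms, with skin in brown and oral mucosa in blue, a bar at the mean of the 2 spots, open points for spots in columns 1 and 2 and dashed lines at the detection limits of 59.9 and 71.8. Only the 5p arms of miR-183 and miR-182 lie well above the limits on both arrays, and their open skin points lie below the filled ones.

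The pattern of arms was set beside the other hairpins with both arms on the array, of which RefSeq gave 605 pairs including those of the cluster. In 158 pairs (26.1%) 1 arm was detected on both arrays and the other on neither, as for miR-182, and in 93 of these it was the 5p arm that was detected. In 324 pairs (53.6%) neither arm was detected on either array, as for miR-96. Both arms were detected on both arrays in 23 pairs. Without the spots of columns 1 and 2 these counts were 158, 326 and 25. These shares are a description of the array, since the probes of the 2 arms differ in how well they bind.

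By the size rule, a VSN log2 difference of at least 1 (a 2-fold change) among microRNAs detected on at least 1 array, 0 of the 3 detected arms of the cluster differed between the tissues. The same rule was passed by 160 of all 562 detected microRNAs (28.5%), with 77 (13.7%) toward oral mucosa and 83 (14.8%) toward skin. Without the spots of columns 1 and 2 it was 0 of 3 in the cluster and 160 of 561 (28.5%) among all microRNAs, with 75 (13.4%) toward oral mucosa and 85 (15.2%) toward skin. With 3 arms the cluster's count cannot be told from this background. The median difference of the 3 arms was 0.27, the value of miR-183-3p set against the lowest detected skin signal, against 0.00 over all 562 detected microRNAs. That of the 2 arms detected on both arrays was -0.09, against -0.06 over all 394 microRNAs detected on both. Without the spots of columns 1 and 2 the medians were 0.05 for the 3 arms and 0.01 for all 561 detected microRNAs. All 3 arms were then detected on both arrays, so their 0.05 is also the value to set beside -0.04 over the 397 detected on both. The median of miR-183-5p and miR-182-5p alone, without miR-183-3p, was then -0.45.

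Among the 394 microRNAs detected on both arrays, 91 had a lower difference than miR-183-5p and 302 a higher one. For miR-182-5p it was 279 and 114. Without the edge columns, 64 of 397 lay below miR-183-5p and 221 below miR-182-5p. The middle 50% of all differences ran from -0.51 to 0.45 with both spots, so that miR-182-5p lay inside it and miR-183-5p just outside toward skin.

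**Figure D3:**
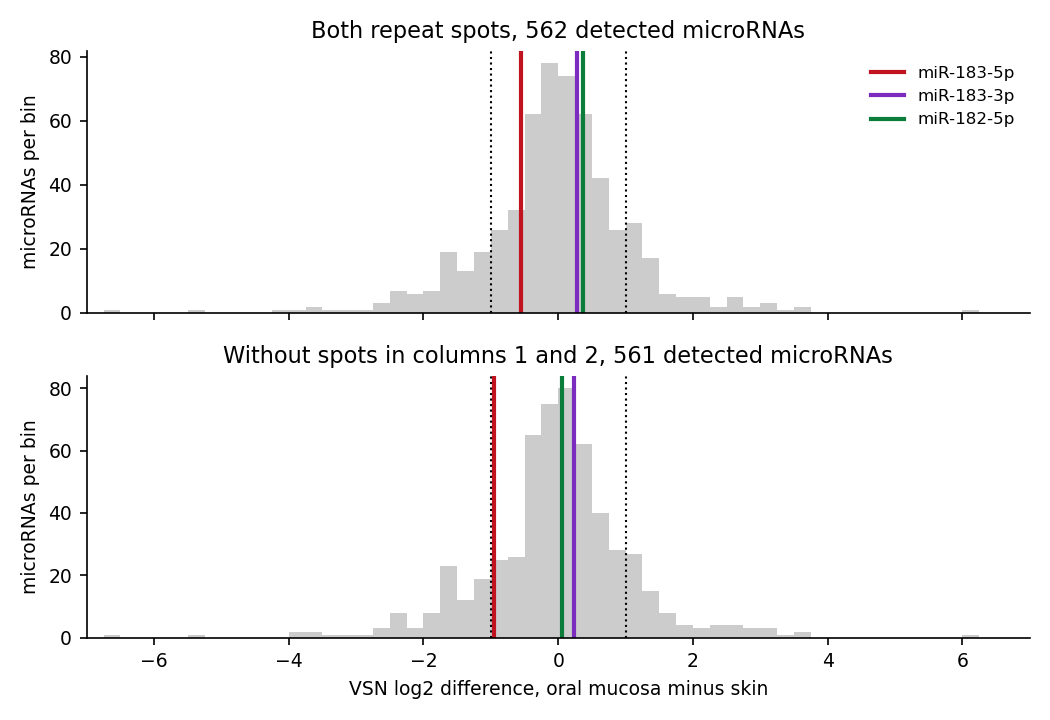
Number of detected microRNAs per bin of 0.25 (vertical axis) by VSN log2 difference, oral mucosa minus skin (horizontal axis), with both repeat spots (above, 562 microRNAs) and without the spots of columns 1 and 2 (below, 561). Dotted lines mark the size rule, and the 3 detected arms lie between them in both panels, miR-183-5p at -0.55 and -0.95.

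The 2 detected 5p arms were also compared with each other through the gap between their differences, which does not depend on the scale fitted between the arrays. The ratio of miR-182-5p to miR-183-5p was higher in oral mucosa than in skin by 0.91 on the log2 scale, or 1.88-fold. Since the spots of both probes lie close together, rows 104 and 106 in column 2 and rows 119 and 121 in column 17, the gap could be taken within each place. It was 0.72 from the column 2 spots and 1.00 from the column 17 spots, a mean of 0.86 ± 0.20 (SD, n = 2 pairs of spots), while the SD was 1.05 when the spots of the probes were treated as independent. Rescaling an array cannot move the gap, which was 0.84 without a background or offset under each of median scaling, 75th-percentile scaling and no normalization. Over the settings that change the spots, the offset, the background or the shape of the distribution it ran from 0.72 to 1.00, many of them from the same spots. It compares the 2 arrays, not the tissues, since all spots of an array share 1 pool of RNA.

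Under 14 settings for normalization, background and spots the difference of miR-183-5p ran from -1.004 to 0.14 and was below 0 in 13, the exception being the fit to the first spots alone, which for this probe is the dim one in skin. It passed the size rule in 1 of them, the fit to the second spots alone. The difference of miR-182-5p ran from -0.01 to 0.86, was above 0 in 13 and passed the size rule in 0. With no normalization between the arrays, where the median over all detected microRNAs was 0.40, the differences were -0.05 for miR-183-5p and 0.79 for miR-182-5p, that is -0.45 and 0.39 relative to that median. In the authors' processed values, which were made by a method not given in the sources used here, miR-183-5p read 428 in skin and 305 in oral mucosa, and miR-182-5p 585 and 767.

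**Figure D4:**
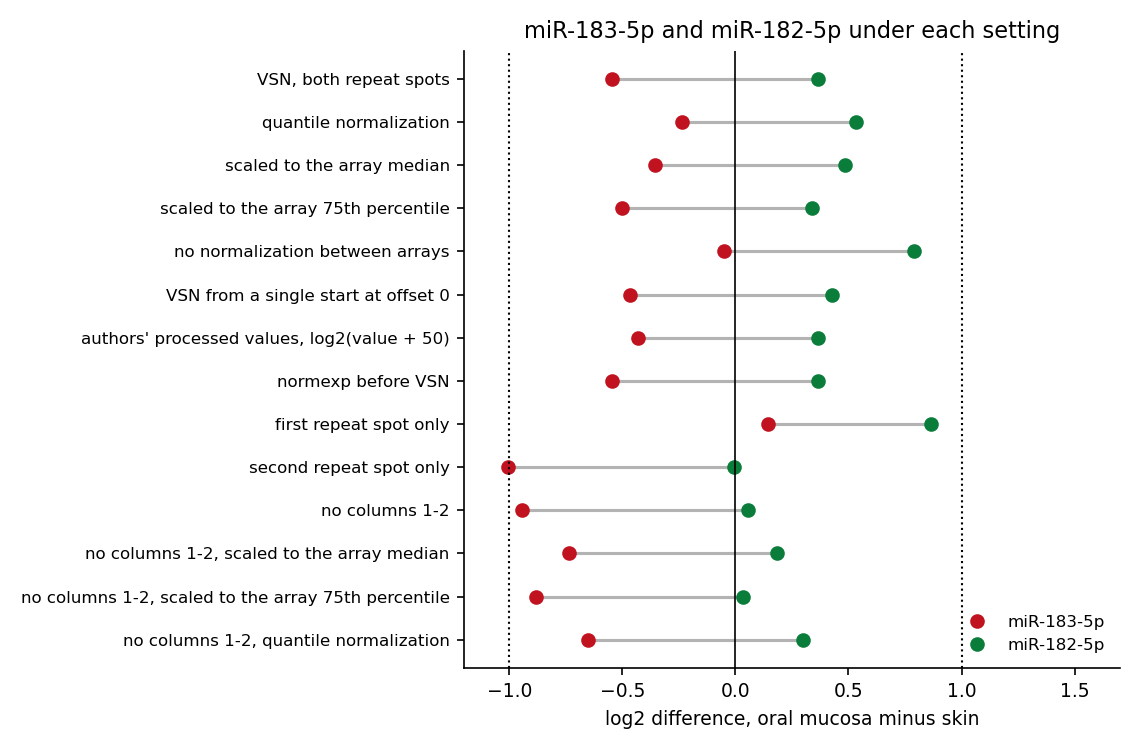
Log2 difference, oral mucosa minus skin (horizontal axis), of miR-183-5p (red) and miR-182-5p (green) under each of 14 settings (vertical axis), joined by a line, with dotted lines at the size rule. The points run from -1.004 to 0.14 for miR-183-5p and from -0.01 to 0.86 for miR-182-5p, and the distance between them, which a rescaling cannot change, is 0.72 to 1.00.

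Since microRNAs of a genomic cluster can share a primary transcript, the gap was set beside those in other clusters of RefSeq hairpins on a strand with less than 10 kb between neighbours. There were 24 other clusters with microRNAs from at least 2 hairpins detected on both arrays, which gave 69 pairs of microRNAs from different hairpins. The median gap of these pairs was 0.54 in size (middle 50% from 0.25 to 1.12), and 23 of them (33.3%) were wider than the 0.91 between miR-182-5p and miR-183-5p. Without the spots of columns 1 and 2 the median was 0.64, and 19 (27.5%) were wider than 1.00. Pairs of a cluster share microRNAs and some of these are made from further precursors, so the shares are descriptive.

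Among the clusters read here, miR-221-3p and miR-222-3p differed from each other by 0.07, and miR-30c-5p and miR-30e-5p by 0.01. The epithelial pair miR-141-3p and miR-200c-3p, encoded by Mir141 and Mir200c on chromosome 6, differed by 1.06, and the differences of miR-200a-3p, miR-200b-3p and miR-429-3p spanned 1.65. In the 10 clusters with at least 3 microRNAs detected on both arrays the span ran from 0.30 for Mirlet7b and Mirlet7c-2 to 2.22 for Mir3072, Mir485, Mir494, Mir667 and Mir758, and without the spots of columns 1 and 2 from 0.50 to 2.22 for the same clusters. Such a span covers more microRNAs than a pair does, and in some clusters both arms of a hairpin, so it is not the same measure as the gap. Set beside pairs from different hairpins, the gap between miR-182-5p and miR-183-5p was within the range of other clusters.

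The 5 microRNAs detected on both arrays whose differences lay closest to -0.09, the median of miR-183-5p and miR-182-5p, were miR-106b-5p, miR-671-5p, miR-7016-5p, miR-467a-3p and miR-205-3p, each within 0.01 of it. Without the spots of columns 1 and 2 the median was -0.45 and 0 of these 5 were among the nearest, which were then miR-466b-3p, miR-762, miR-7020-5p, miR-125b-5p and miR-6971-5p. The median lies between the differences of the 2 arms and is close to neither, so these microRNAs mark that midpoint only.

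The cluster was set beside lists of microRNAs for epithelium and for other cell types that the samples could hold. The summed signals of these lists are in scanner units, without the 1.37-fold scale fitted between the arrays, and hold the background, and where few members were detected the sum that as many empty spots would give is set beside them. With VSN, leaving out the spots of columns 1 and 2 changed 0 of the lists' counts past the size rule. Fewer cells of a type and less RNA per cell cannot be told apart in such tissue RNA. The 7 microRNAs of the epithelial list, the miR-200 family with miR-203-3p and miR-205-5p, which are known to maintain the epithelial state and the keratinocyte layers, were all detected on both arrays. Their summed signal was 49225 in skin and 48779 in oral mucosa, with the probe of miR-205-5p the highest on each array. The probes of miR-205-5p (22415 and 21673) and miR-203-3p (18734 and 18503) made up most of these sums, which are thus no level for the whole list. By the size rule miR-429-3p was higher in oral mucosa (1.12, SD 0.89) and miR-200c-3p in skin (-1.22, SD 0.46), and 5 passed in neither direction. These 2 of 7 are close to the 28.5% of all detected microRNAs that passed. The median of the list was -0.48 (from -1.22 to 1.12), and the differences of all 3 detected arms of the miR-183, miR-96 and miR-182 cluster lay inside this range.

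Of the 7 neuronal and sensory microRNAs, miR-128-3p and miR-138-5p were detected, with differences of -0.52 (SD 0.20) and -0.22 (SD 0.07), or -0.32 and -0.13 without the spots of columns 1 and 2, and miR-124-3p, miR-9-5p and miR-9-3p, which mark neurons most clearly, were detected on neither array. Their skin signals were between 35.0 and 35.5 and their oral mucosa signals between 41.9 and 47.8, below the means of the empty spots. The summed signal of this list was 408 in skin and 477 in oral mucosa, where 7 empty spots would give 255 and 363, and the probe of miR-138-5p was the highest on each array. Of the pigment cell list, miR-211-5p was detected on neither array and miR-204-5p on the oral mucosa array alone, where its spots disagreed at 51.3 and 161, with a difference of 0.98 (SD 3.00) from the lowest detected skin signal. The summed signal was 91.6 in skin and 158 in oral mucosa, where 2 empty spots would give 72.7 and 104. Both probes were below the limit in skin.

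Several lists for cells that lie under the epithelium held microRNAs past the size rule, toward oral mucosa. Some of these passed detection only through oral mucosa, where they were high. With detection required on both arrays, 47 of all 394 microRNAs passed the size rule toward oral mucosa. Under this filter it was 4 of 4 mesenchymal, 1 of 1 immune and 1 of 1 red blood cell microRNAs, and 0 endothelial microRNAs were detected. Among microRNAs detected on at least 1 array, all 5 mesenchymal ones were higher in oral mucosa, against a share of 13.7%. MiR-143-3p of these passed detection only through oral mucosa and is not in the 4 of 4 above. Of those 4, miR-199a-5p, miR-199a-3p and miR-214-3p belong to the same genomic cluster, Mir199a-2 and Mir214. The list was also chosen with earlier results of these data known, so both counts are descriptive. The median of the 5 was 1.78, with miR-143-3p set against the lowest detected skin signal. Their summed signals were 516 in skin and 1871 in oral mucosa, the highest probe being that of miR-214-3p, known from fibroblasts. Of the 2 endothelial microRNAs miR-126a-3p passed the limit in oral mucosa alone and was higher there by 1.84 than the lowest detected skin signal (SD 0.70, oral mucosa spots), and by 2.26 without the spots of columns 1 and 2. MiR-126a-5p was detected on neither array, and the sums were 81.6 and 200.2, where 2 empty spots would give 72.7 and 104. The red blood cell microRNA miR-451a was higher in oral mucosa by 6.21 (SD 0.37). Its skin spots read 62.1 and 72.5, not far above the limit of 59.9, so this size rests on a skin signal near the limit. MiR-144-3p was detected on neither array. The sums were 105 and 3106, where 2 empty spots would give 72.7 and 104, so that the skin sum was mostly background.

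Of the 6 immune cell microRNAs miR-146a-5p, detected on both arrays, was higher in oral mucosa by 1.05 (SD 0.19). MiR-150-5p was detected in oral mucosa alone, higher by 2.73 than the lowest detected skin signal (SD 0.27, oral mucosa spots), and the other 4, miR-142-3p and miR-142-5p among them, were detected on neither array. The sums were 293 in skin and 602 in oral mucosa, where 6 empty spots would give 218 and 311, so that the skin sum was mostly background. The highest probe was that of miR-146a-5p in skin and that of miR-150-5p in oral mucosa. Of the 4 skeletal muscle microRNAs 3 were detected and 0 of these passed the size rule, against 28.5% of all detected microRNAs. MiR-206-3p, detected on both arrays, differed by -0.19 (SD 0.36). MiR-133a-3p and miR-133b-3p, detected in oral mucosa alone, differed from the lowest detected skin signal by 0.71 (SD 0.24) and 0.53 (SD 0.13), or 0.87 and 0.44 without the spots of columns 1 and 2. MiR-1a-3p was detected on neither array, and the sums were 297 and 428, where 4 empty spots would give 145 and 207, with the probe of miR-206-3p the highest.

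Calls close to the size rule depended on the scaling between the arrays. MiR-146a-5p fell to 0.69 after median scaling, 0.54 after 75th-percentile scaling and 0.59 after quantile normalization, and to 0.996 with no normalization. MiR-199a-5p, at 1.01 the lowest of the mesenchymal list, fell to 0.71, 0.57 and 0.595 under the first 3 of these, so that 4 of 5 then passed. It passed in 7 of 16 settings with a detection filter and a 2-fold threshold, and miR-146a-5p in 6 of 16. MiR-126a-3p fell to 0.92 after 75th-percentile scaling and 0.95 after quantile normalization, and passed under both once the spots of columns 1 and 2 were left out. In the epithelial list miR-200c-3p was at -0.95 after quantile normalization and -0.75 with no normalization, where miR-200a-3p passed toward oral mucosa beside miR-429-3p, and miR-429-3p was at 0.57 with the second repeat spots only. MiR-204-5p of the pigment cell list passed toward oral mucosa with the authors' processed values and with the second repeat spots only, and was not detected with the first repeat spots only or when both spots had to pass the limit. MiR-451a, miR-150-5p, miR-214-3p, miR-145a-5p, miR-143-3p and miR-199a-3p stayed past the rule under all these settings in which they were detected, at sizes that depended on the setting. The smallest were 5.01 for miR-451a, 1.58 for miR-150-5p, 1.91 for miR-214-3p, 1.13 for miR-145a-5p, 1.02 for miR-143-3p and 1.13 for miR-199a-3p. The part of these cell types in the values of the miR-183, miR-96 and miR-182 cluster was not tested.

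**Figure D5:**
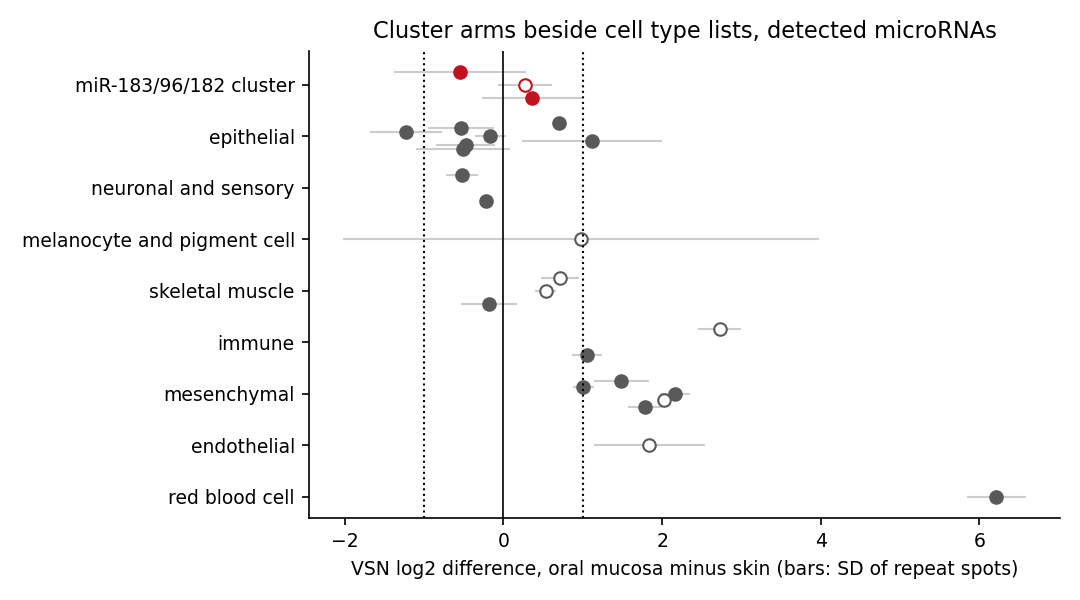
VSN log2 difference, oral mucosa minus skin (horizontal axis), of each detected microRNA of the cluster (red) and of the cell type lists (grey), with both repeat spots. Filled points were detected on both arrays, open points on oral mucosa alone and are set against the lowest detected skin signal, bars show the SD of the repeat spots and dotted lines the size rule. The cluster lies between -0.55 and 0.36, with the 5 mesenchymal microRNAs at 1.01 to 2.17.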

How the data were processed

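The authors deposited scanner intensity values, the median Cy5 brightness of each spot with its SD, from which no background had been subtracted and which were not scaled between arrays. A deposited table of processed intensity, with 1 value for each microRNA and tissue, was made by a method not given in the sources used here. The arrays were the miRmouse v21 design of LC Sciences. Each held 3968 spots, of which 184 were control spots and were left out except for the detection limit and normexp. Repeat spots were averaged and normalized by VSN, written after its published description in Python 3.11.15 (numpy 2.4.6, scipy 1.17.1, pandas 2.3.3) with offsets of 37.9 and 46.3. In each of 5 slices of signal except the dimmest, 90% of probes were kept. Where only 1 array detected a microRNA, the lowest detected signal of the other array stood in there unless the probe itself read higher. Normexp was run in limma 3.58.1 under R 4.3.3. The study's test, CyberT, was not run, as repeat spots of 1 pool are not replicates. Scripts were tested on simulated data with 4-fold changes, which do not test differences near the size rule. The names given were those of the cluster, its seed matches, the nearest differences and the lists. Members and lists were chosen with earlier results of these data known. MiR-142a was read through the probes of miR-142, of identical sequence, and miR-486a-5p was not analysed here. Sequences and positions were taken from RefSeq (GRCm38.p6), which matched 6 of 6 cluster members. Alternatives are given in the closing section.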

Additional observations from a re-analysis of the deposited data

How the results depend on the processing

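No paired analysis was possible because there was a single array for skin and a single one for oral mucosa. The settings that leave out the spots of columns 1 and 2 were chosen after seeing the data. Of the cluster's arms, 0 passed the size rule with VSN and under all settings run but 2. It was 1 with the second repeat spots only (miR-183-5p) and 2 without a detection filter, miR-96-3p at 1.11 and miR-182-3p at 1.26, whose signals were not told from empty spots. The cluster's median difference, 0.27, ran from -0.09 with detection required on both arrays to 0.69 without a detection filter. The count over all microRNAs, 160 with VSN, was 80 after quantile normalization, 85 after median scaling, 85 after 75th-percentile scaling, 102 with no normalization, 87 with the authors' processed values, 104 with detection required on both arrays and 577 without a filter. It was 256 and 46 at 1.5-fold and 4-fold. Without the spots of columns 1 and 2 it was 88, 90 and 85 with median, 75th-percentile and quantile scaling. Calls toward oral mucosa made up 48.1% with VSN and 78.4% with no normalization. Why the count and this share changed with the setting was not tested. VSN from a single start at offset 0 ended in a plain logarithm of the signal above an offset, with 142 calls. Signal over background limited 4 of the 6 arms, since miR-183-3p read 1.16 times the limit on its brighter array and miR-96-5p, miR-96-3p and miR-182-3p below the limits.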
